A study of Mus musculus with 10 samples.

Results

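Mitochondrial ribosomal protein genes were the protein-coding genes of the deposited count table whose symbol is Mrpl or Mrps followed by a number and at most 1 letter. The rule uses names and no measured value, and it found 78 members among 56748 genes, of which 21970 are protein-coding. RNA-seq was measured in 5 samples of microglia, which are CD11b+ cells sorted from the brain, and in 5 samples of bulk brain, which are hemi brains taken whole. The mice of both groups were young C57BL/6 males, with no treatment, mutant allele or exact age given in the labels. The CD11b gate also admits border-associated macrophages and blood myeloid cells, and bulk brain holds microglia beside neurons, glia and vessels. Whether each sample is a separate animal or a pool is not in the labels, so p-values here speak for the scatter among these 10 libraries and not for a population of mice.

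Mitochondria carry their own ribosome, which translates the few messenger RNAs encoded by mitochondrial DNA into membrane subunits of the respiratory chain and the ATP synthase. Its ribosomal RNAs come from mitochondrial DNA, whereas its proteins are encoded in the nucleus, made on cytosolic ribosomes and imported. The mitochondrial ribosome is richer in protein than the bacterial ribosome from which it descends: some of its proteins have bacterial homologues and others exist in mitochondria alone. Microglia, the resident macrophages of the brain, were therefore set against whole brain tissue for the level of each of these proteins' messenger RNAs.

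Total counts were 25087489 to 28514509 per microglia library and 25845049 to 34709215 per bulk brain library. Levels are CPM, counts scaled to a common library total after adjustment by the trimmed mean of M-values (TMM). The 10 microglia markers (among them P2ry12, Tmem119 and Cx3cr1) summed to between 31936 and 33183 CPM in microglia and between 230 and 255 CPM in bulk brain. Neuron markers (10 genes) summed to 6.49 to 12.3 CPM in microglia, against 5903 to 7249 CPM in bulk brain, and astrocyte markers (8 genes) to 135 to 169 CPM, against 3492 to 4539 CPM in bulk brain. Oligodendrocyte markers (9 genes) summed to 143 to 246 CPM in microglia, against 5816 to 7944 CPM in bulk brain. Endothelial markers (8 genes) were the least depleted of these classes, at 74.2 to 105 CPM in microglia, against 278 to 350 CPM in bulk brain (29.0% of the bulk brain mean), and 1 of them, Pecam1, was higher in microglia (log2 difference 1.19). Markers of border-associated macrophages (7 genes) summed to 473 to 618 CPM in microglia, against 10.6 to 12.7 CPM in bulk brain, and those of neutrophils, monocytes and lymphocytes (10 genes) to 31.7 to 42.1 CPM, against 0.798 to 1.38 CPM in bulk brain. No listed marker was at 0 over the 5 microglia libraries. Bulk brain replicates 1 and 2 stood apart from replicates 3 to 5: oligodendrocyte markers summed to 7375 and 7944 CPM in the first 2 libraries against 5816 to 5907 CPM in the other 3, and neuron markers to 6150 and 5903 CPM against 6919 to 7249 CPM. The main results are therefore also given against these subsets of bulk brain, and the part of cell composition or library quality in them was not tested.

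Most mitochondrial ribosomal protein messenger RNAs were lower in microglia than in bulk brain. Summed over the members, the level was 1224, 1316, 1247, 1250 and 1267 CPM in microglia, against 2344, 3263, 1593, 1585 and 1626 CPM in bulk brain. The microglia libraries lay within a narrow range below every bulk brain library, and bulk brain replicates 1 and 2 lay above the other 3. The mean sum was 1261 ± 34.5 CPM in microglia, against 2082 ± 735 CPM in bulk brain (SD, n = 5 each), so that microglia held 60.6% of the bulk brain level, 78.8% of that in bulk brain replicates 3 to 5 and 45.0% of that in replicates 1 and 2. Fewer cells with a high level and less RNA per cell cannot be told apart in bulk tissue.

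Gene by gene, 77 members passed the filter on low counts. With edgeR's quasi-likelihood test and Benjamini-Hochberg adjustment over the 18969 genes tested, 55 members fell in microglia, 5 rose and 17 did not pass an adjusted p of 0.05. Of all genes tested, 43.9% were called lower and 37.2% higher, against 71.4% and 6.49% of the tested members. The median log2 difference, microglia minus bulk brain, was -0.88 over the members, -0.14 over all genes tested and -0.30 over the protein-coding genes tested. At least 2-fold lower were 34 members, or 44.2%, against a background of 36.8%, and at least 2-fold higher were 3 members, against a background of 27.8%. All 5 microglia libraries lay below all 5 bulk brain libraries in 45 members and above them in 4, and the groups overlapped in 28; over all genes tested, 40.5% lay fully below and 34.2% fully above. Set against bulk brain replicates 3 to 5, microglia lay fully below in 45 members (background 44.3%) and fully above in 8 (background 39.9%).

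**Figure D1:**
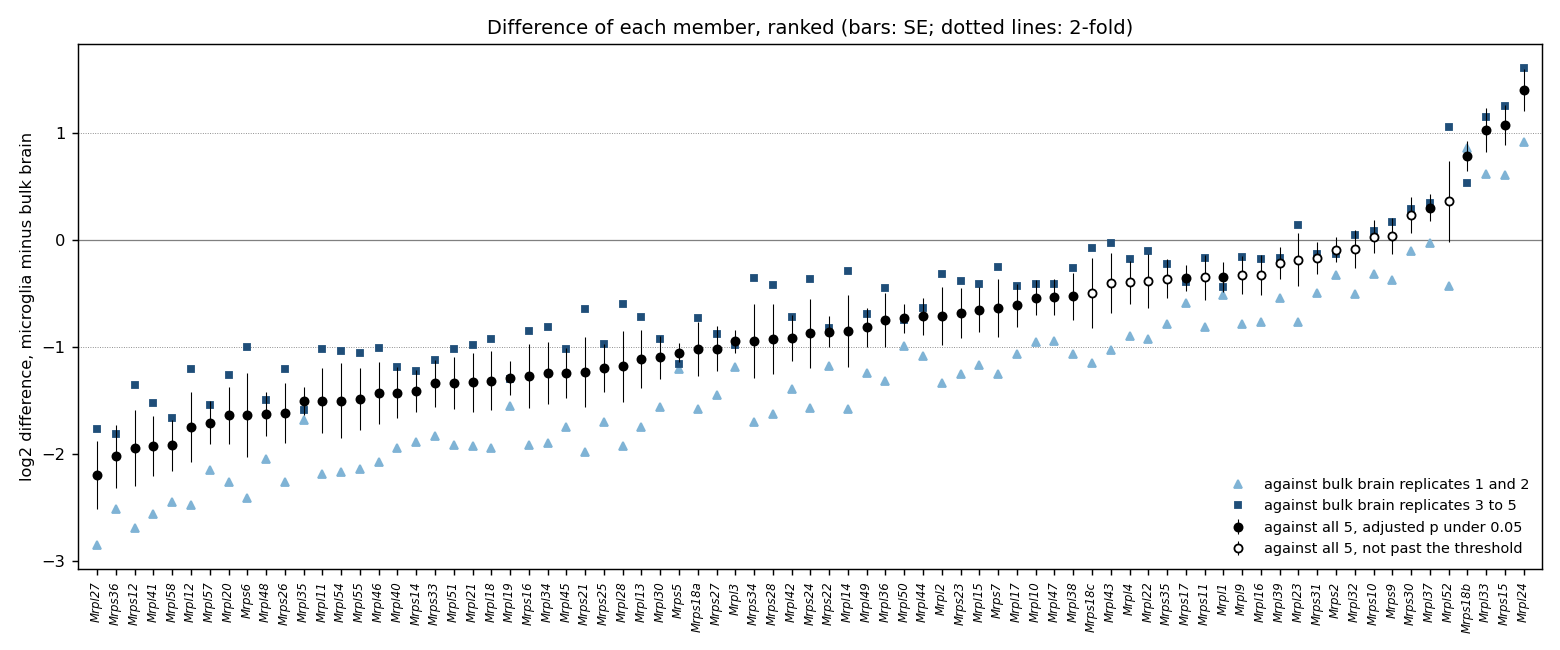
Log2 difference, microglia minus bulk brain, of the 77 tested members, ranked along the x axis. Circles are the fit against all 5 bulk brain libraries with its SE as bars (filled where adjusted p is under 0.05), triangles the fit against bulk brain replicates 1 and 2, squares the fit against replicates 3 to 5, and dotted lines mark 2-fold. Most circles lie below 0, from -2.20 for Mrpl27 to 1.40 for Mrpl24, and triangles lie mostly below squares.

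The choice of bulk brain libraries moved the sizes more than the directions. Against bulk brain replicates 1 and 2, 70 members fell (background 44.9%) and 4 rose (background 37.1%), with a median of -1.34 on the log2 scale, and 52 members fell at least 2-fold (background 37.7%). Against bulk brain replicates 3 to 5, 52 members fell (background 47.4%) and 7 rose (background 37.9%), with a median of -0.64. In that comparison 23 of the 77 tested members fell at least 2-fold, a smaller share than the 38.0% of all genes. At least 2-fold higher were 4 members (background 26.0%). The median over all genes was -0.23 in both of these comparisons. The 52 members lower against replicates 3 to 5 were all among the 55 lower against all 5 bulk brain libraries, and no member called lower in the one was called higher in the other. Because the subsets share the microglia libraries, the comparisons are not independent of each other.

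Among the members that fell furthest without overlap between the groups were Mrpl27 and Mrps12. Mrpl27, which encodes the large-subunit protein homologous to the bacterial protein that reaches into the peptidyl transferase centre, had 5.40, 6.94, 4.55, 6.88 and 7.63 CPM in microglia, against 32.7, 53.7, 19.3, 21.1 and 17.1 CPM in bulk brain. The groups did not overlap, and the highest microglia library lay below the lowest bulk brain library, replicate 5. Its log2 difference was -2.20 ± 0.32 (SE; adjusted p = 4.8e-05), and it was -2.85 against bulk brain replicates 1 and 2 and -1.77 against replicates 3 to 5. Mrps12, which encodes the small-subunit protein of the decoding centre, had 7.83, 6.28, 8.29, 6.09 and 6.84 CPM in microglia, against 30.8, 56.4, 16.7, 15.8 and 16.2 CPM in bulk brain. The groups again did not overlap, with bulk brain replicate 2 far above the rest. The log2 difference of Mrps12 was -1.94 ± 0.36 (SE; adjusted p = 0.00032), and -1.35 against bulk brain replicates 3 to 5.

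Mrpl41 and Mrpl58 of the large subunit and Mrps36 were also among them. Mrpl41, a mitochondria-specific protein, had 11.8, 10.9, 11.2, 10.4 and 9.50 CPM in microglia, against 45.7, 75.3, 25.2, 29.0 and 29.2 CPM in bulk brain, a log2 difference of -1.93 ± 0.28 (SE; adjusted p = 5.4e-05). Mrpl58, also known as ICT1, is a peptidyl-tRNA hydrolase built into the large subunit. It had 8.38, 9.15, 7.59, 11.0 and 9.46 CPM in microglia, against 39.2, 55.5, 26.3, 23.7 and 27.7 CPM in bulk brain, a log2 difference of -1.92 ± 0.24 (SE; adjusted p = 1.2e-05). Neither gene overlapped between the groups, and the difference held against bulk brain replicates 3 to 5, at -1.53 for Mrpl41 and -1.66 for Mrpl58. Mrps36 carries a ribosomal name, but its product is now known as a subunit of the 2-oxoglutarate dehydrogenase complex of the citric acid cycle. It had 2.58, 4.19, 3.16, 5.61 and 2.58 CPM in microglia, against 16.2, 23.2, 10.2, 10.6 and 13.4 CPM in bulk brain, a log2 difference of -2.02 ± 0.30 (SE; adjusted p = 5.2e-05), again without overlap. Without Mrps36, 54 of 76 tested members fell and the median log2 difference was -0.87.

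The members Mrpl24, Mrps15, Mrpl33 and Mrps18b rose in each of the alternative fits that were run and in the fit reported here, against the direction of most of the others. Mrpl24, a large-subunit protein with a bacterial homologue at the exit of the peptide tunnel, had 59.2, 67.7, 56.2, 62.7 and 63.4 CPM in microglia, against 26.5, 36.2, 18.3, 16.9 and 19.5 CPM in bulk brain. The lowest microglia library lay well above the highest bulk brain library, replicate 2. Its log2 difference was 1.40 ± 0.20 (SE; adjusted p = 3.8e-05), and it was 0.91 against bulk brain replicates 1 and 2 and 1.60 against replicates 3 to 5. Mrpl24 shares 1072 bases with Rrnad1 on the opposite strand, which was higher as well (73.1 ± 2.02 CPM in microglia, against 23.6 ± 1.34 CPM in bulk brain, SD, n = 5 each), and the strand setting of the counting is not given in the sources used here, so reads of the pair cannot be told apart.

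Mrps15, a small-subunit protein with a bacterial homologue that binds ribosomal RNA early in assembly, had 51.6, 53.5, 52.2, 47.4 and 48.2 CPM in microglia, against 28.8, 34.5, 16.6, 19.2 and 21.6 CPM in bulk brain. The groups did not overlap, and Mrps15 overlaps no other gene of the table. Its log2 difference was 1.07 ± 0.18 (SE; adjusted p = 0.0002), and 1.24 against bulk brain replicates 3 to 5. Mrpl33, a small protein of the large subunit, had 23.2, 19.1, 15.6, 21.4 and 17.8 CPM in microglia, against 9.58, 14.6, 8.12, 8.67 and 6.83 CPM in bulk brain. The lowest microglia library lay just above bulk brain replicate 2. The log2 difference of Mrpl33 was 1.02 ± 0.21 (SE; adjusted p = 0.00066), and 0.61 against bulk brain replicates 1 and 2. Mrpl33 overlaps Rbks on the opposite strand over 39946 bases, and Rbks had 4.97 ± 0.753 CPM in microglia, against 1.52 ± 0.45 CPM in bulk brain (SD, n = 5 each).

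**Figure D2:**
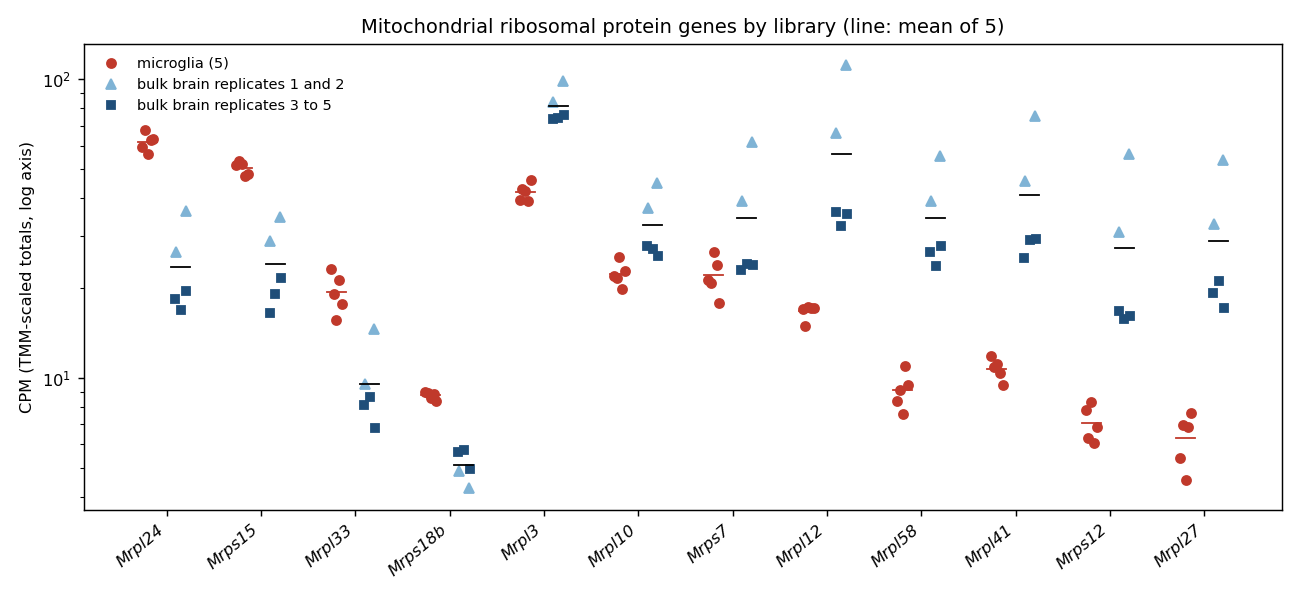
CPM per library on a log axis for 12 members, microglia as red circles to the left and bulk brain to the right, as light triangles for replicates 1 and 2 and dark squares for replicates 3 to 5, with the mean of 5 as a line. Mrpl24, Mrps15, Mrpl33 and Mrps18b lie higher in microglia, Mrps7 overlaps between the groups, and the other 7 genes lie lower in microglia in every library.

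To place both directions side by side in sequence, the 150 bases before the annotated start are given for 3 members that rose and 3 that fell. They were chosen among those with the largest differences, and no other annotated gene lies in their window. Mrps36, which fell further than Mrps12 and also has no other gene in its window, is not shown. The sequences are from RefSeq on GRCm38.p6, read 5′ to 3′ on the strand of the gene. Capitals mark CCGGAAG, a core of ETS-family sites, and GGGCGGG, an SP1-type GC box, on either strand. The windows are chr3:87919394-87919543 (plus strand) for Mrpl24, chr4:126046778-126046927 (plus) for Mrps15, chr5:31613801-31613950 (plus) for Mrpl33, chr7:28741822-28741971 (minus) for Mrps12, chr2:24975099-24975248 (minus) for Mrpl41 and chr11:115403602-115403751 (plus) for Mrpl58.
Mrpl24: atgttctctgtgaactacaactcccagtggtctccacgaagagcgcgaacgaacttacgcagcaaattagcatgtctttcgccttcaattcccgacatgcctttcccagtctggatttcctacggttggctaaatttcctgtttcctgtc
Mrps15: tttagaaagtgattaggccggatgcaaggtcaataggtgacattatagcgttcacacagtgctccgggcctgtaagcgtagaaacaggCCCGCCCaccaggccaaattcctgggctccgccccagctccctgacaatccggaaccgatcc
Mrpl33: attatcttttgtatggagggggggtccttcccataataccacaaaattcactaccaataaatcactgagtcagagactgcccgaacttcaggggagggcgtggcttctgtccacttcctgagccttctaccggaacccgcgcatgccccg
Mrps12: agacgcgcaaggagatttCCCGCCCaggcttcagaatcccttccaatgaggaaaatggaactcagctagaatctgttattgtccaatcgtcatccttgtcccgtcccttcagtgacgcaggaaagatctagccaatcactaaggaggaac
Mrpl41: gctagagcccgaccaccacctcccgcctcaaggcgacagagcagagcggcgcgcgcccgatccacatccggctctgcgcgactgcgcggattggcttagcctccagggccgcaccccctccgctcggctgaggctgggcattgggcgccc
Mrpl58: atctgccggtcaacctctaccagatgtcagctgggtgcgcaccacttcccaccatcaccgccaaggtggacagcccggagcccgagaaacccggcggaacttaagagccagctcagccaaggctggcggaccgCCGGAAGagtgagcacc

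In these windows the GC box was found in Mrps15 and Mrps12 and the ETS core in Mrpl58, so neither motif separated the 3 higher from the 3 lower genes. The window of Mrps36, not shown, also held the GC box. Over the 250 bases before the start, 69 of the 78 members had a promoter in the RefSeq table. On either strand, CCGGAAG was found in 17 of these 69 members (24.6%), against 9.35% of 16770 protein-coding genes. It was found in 12 of the 48 members that fell and have a promoter in the table, and in 0 of the 5 that rose. GGGCGGG was found in 29 members (42.0%), against 32.2% of protein-coding genes, in 23 of the 48 that fell and 3 of the 5 that rose. The palindromic core CGCATGCG of sites for NRF1, a factor known to drive nuclear genes of the respiratory chain, was found in 7 members (10.1% against 2.18%), 2 of the 48 that fell and 1 of the 5 that rose, and the YY1 letters AAGATGGCG in 2 (2.90% against 0.722%). The median GC content was 58.4% for members and 55.6% for protein-coding genes. The letters describe these windows and say nothing of binding.

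By subunit, 37 of 50 tested large-subunit members fell and 3 rose, with a median log2 difference of -0.89. Among 26 small-subunit members, 17 fell and 2 rose, with a median of -0.87. Against bulk brain replicates 3 to 5 the medians were -0.71 for the large and -0.39 for the small subunit. Members with a bacterial homologue (32 of 45 fell, 3 rose, median -0.86) and mitochondria-specific members (21 of 28 fell, 1 rose, median -0.93) gave similar counts. Against replicates 3 to 5 their medians lay further apart, at -0.44 and -0.79. No difference between classes was tested. Levels per gene length give the balance within a library: the median TPM (transcript counts divided by gene length and scaled to a common total) of large-subunit over small-subunit members was 1.23 ± 0.12 in microglia, against 1.33 ± 0.12 in bulk brain (SD, n = 5 each), and the ranges, 1.11 to 1.43 in microglia against 1.16 to 1.50 in bulk brain, overlapped.

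The stalk of the large subunit recruits the translation factors. Mrpl12, its mobile protein, had 17.0, 15.0, 17.3, 17.2 and 17.1 CPM in microglia, against 66.0, 112, 36.0, 32.4 and 35.5 CPM in bulk brain. Bulk brain replicate 2 was far above the other 4, and the groups did not overlap. Its log2 difference was -1.75 ± 0.32 (SE; adjusted p = 0.00034), -2.47 against bulk brain replicates 1 and 2 and -1.20 against replicates 3 to 5. Mrpl11, at the base of the stalk, fell by 1.50 on the log2 scale (12.5 ± 0.97 CPM in microglia, against 35.5 ± 19.6 CPM in bulk brain, SD, n = 5 each; adjusted p = 0.00065). Mrpl10, which anchors the stalk, fell less, by 0.54 (22.4 ± 2.08 CPM in microglia, against 32.5 ± 8.27 CPM in bulk brain, SD, n = 5 each; adjusted p = 0.0097). The 3 stalk genes thus fell, each without overlap between the groups, and by different amounts.

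Mrpl45, Mrps6, Mrpl57 and Mrps7 also fell. Mrpl45, which faces the inner membrane at the exit of the tunnel, fell by 1.25 on the log2 scale (15.8 ± 3.23 CPM in microglia, against 37.5 ± 13.3 CPM in bulk brain, SD, n = 5 each; adjusted p = 0.00039). Mrps6, a small-subunit protein homologous to a bacterial one, fell by 1.64 (5.34 ± 1.55 CPM in microglia, against 16.6 ± 10.9 CPM in bulk brain; adjusted p = 0.0022). Slc5a3 overlaps Mrps6 on the same strand over 29152 bases, at 61.1 ± 9.97 CPM in microglia, against 50.7 ± 10.6 CPM in bulk brain, so reads of the pair may be mixed. Mrpl57, a mitochondria-specific large-subunit protein, fell by 1.71 (6.26 ± 0.835 CPM in microglia, against 20.4 ± 6.13 CPM in bulk brain; adjusted p = 9.5e-06). Mrps7, a protein of the head of the small subunit, had 21.3, 20.8, 26.5, 23.9 and 17.8 CPM in microglia, against 39.3, 61.5, 23.0, 24.1 and 23.8 CPM in bulk brain. The microglia libraries overlapped with bulk brain replicates 3 to 5, the log2 difference was -0.64 ± 0.27 (SE; adjusted p = 0.047), and against bulk brain replicates 3 to 5 the call was lost (-0.25, adjusted p = 0.06). On the opposite strand Mrps7 shares 127 bases with Gga3 and 119 bases with Mif4gd, so reads may be mixed. Both neighbours were higher in microglia, with log2 differences of 0.84 and 0.97.

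Some members did not pass the test. Mrpl32, which in yeast and mouse is matured by the m-AAA protease, had 14.6 ± 1.53 CPM in microglia, against 15.5 ± 3.94 CPM in bulk brain (SD, n = 5 each; log2 difference -0.08, adjusted p = 0.67). Mrps30, now placed in the large subunit, had 19.8 ± 1.95 CPM in microglia, against 16.9 ± 4.11 CPM in bulk brain (log2 difference 0.23, adjusted p = 0.22; n = 5 each). Over all fits the log2 difference of Mrpl32 lay between -0.51 and 0.046. Of the 17 members that did not pass, 13 had a difference below 0 and 4 above 0. Most of these 17 were called lower against bulk brain replicates 1 and 2 alone, where 70 members fell. Mrpl52, a mitochondria-specific large-subunit protein, depended most on the bulk brain libraries. It had 22.8, 22.2, 23.2, 17.4 and 21.1 CPM in microglia, against 18.9, 36.5, 11.6, 7.87 and 8.45 CPM in bulk brain. The microglia libraries lay above bulk brain replicates 3 to 5 (log2 difference 1.05, adjusted p = 1.4e-05), whereas replicate 2 lay above all microglia libraries (-0.44 against replicates 1 and 2, adjusted p = 0.068), and the fit on all libraries gave 0.36 ± 0.38 (SE; adjusted p = 0.39). Mrps30 also rose against replicates 3 to 5 alone (0.28, adjusted p = 0.031). Mrpl37, a mitochondria-specific large-subunit protein, is named here only to complete the 5 members that rose: it passed just under the threshold (log2 difference 0.30 ± 0.13, SE; adjusted p = 0.0499; -0.03 against replicates 1 and 2), and its call was lost in 16 of 22 alternative fits.

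With all 5 bulk brain libraries, the S18 family showed all 3 outcomes. Mammals have 3 mitochondrial homologues of a single bacterial small-subunit protein, which occupy different places in the ribosome. Mrps18a, whose product sits in the large subunit, had 14.8, 17.7, 12.1, 15.0 and 15.2 CPM in microglia, against 31.0, 54.3, 22.1, 21.9 and 22.7 CPM in bulk brain, and fell by 1.02 on the log2 scale (SE 0.25, adjusted p = 0.0028). Mrps18a shares 6876 bases with Rsph9 on the opposite strand, so reads of the pair may be mixed. Rsph9 was at 0.809 ± 0.437 CPM in microglia, against 8.70 ± 4.56 CPM in bulk brain (SD, n = 5 each). Mrps18b had 9.02, 8.92, 8.60, 8.87 and 8.38 CPM in microglia, against 4.87, 4.27, 5.64, 5.73 and 4.98 CPM in bulk brain. It rose without overlap between the groups, by 0.78 ± 0.14 on the log2 scale (SE; adjusted p = 0.00031), and by 0.53 against bulk brain replicates 3 to 5. It shares 1837 bases with the lncRNA Gm16279 on the opposite strand, which was at 2.28 ± 0.271 CPM in microglia, against 0.681 ± 0.141 CPM in bulk brain (SD, n = 5 each). Mrps18c, in the place of the bacterial protein, had 4.29, 4.93, 5.17, 3.42 and 4.13 CPM in microglia, against 7.09, 11.5, 2.84, 4.54 and 5.04 CPM in bulk brain, with overlap and no call (log2 difference -0.50 ± 0.33, SE; adjusted p = 0.18). The outcome of Mrps18c turned with the bulk brain libraries. Against replicates 1 and 2 it was called lower (log2 difference -1.15), as was Mrps18a, and against replicates 3 to 5 its log2 difference was -0.08. Mrps18c shares 2297 bases with Gm43511 on the same strand, so reads of the pair may be mixed. Gm43511 was at 2.35 ± 0.602 CPM in microglia, against 0.582 ± 0.324 CPM in bulk brain (SD, n = 5 each). The difference between the 3 genes' responses was not tested.

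**Figure D3:**
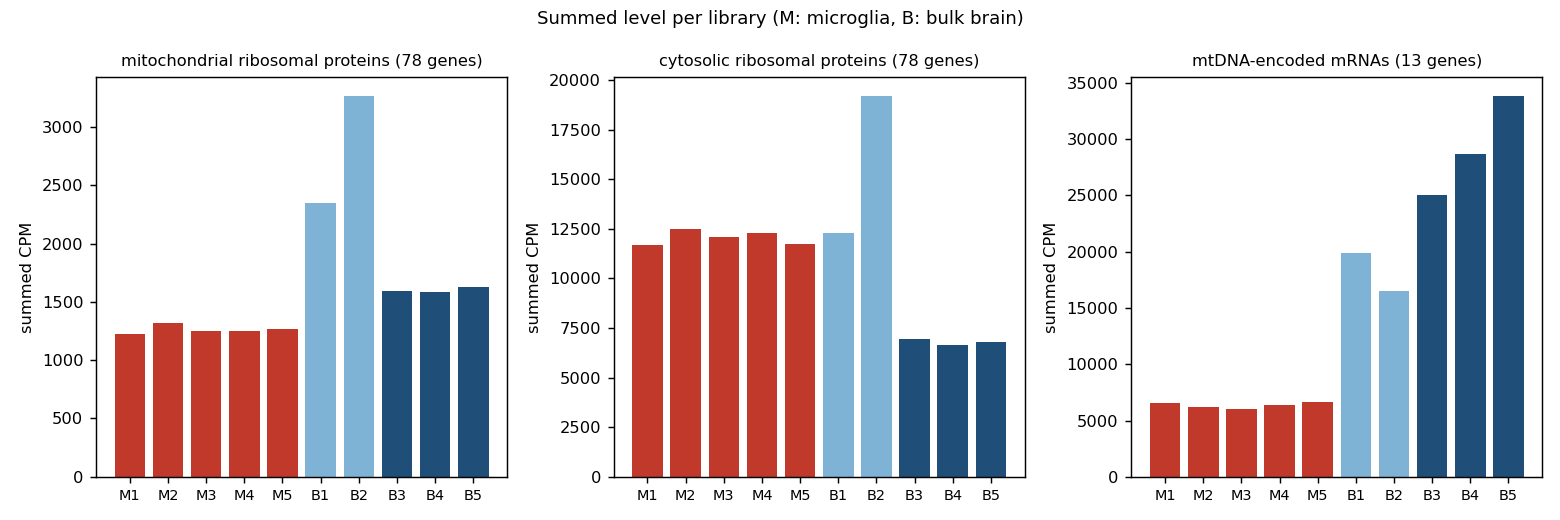
Summed CPM per library, from 0, of the 78 mitochondrial ribosomal protein genes, of 78 cytosolic ribosomal protein genes and of the 13 mitochondrially encoded messenger RNAs; red bars are microglia (M), light blue bars bulk brain replicates 1 and 2 and dark blue bars bulk brain replicates 3 to 5 (B). The 3 panels have different scales. Mitochondrial ribosomal protein genes and mitochondrially encoded messenger RNAs are lower in every microglia library, and cytosolic ribosomal protein genes are highest in bulk brain replicate 2 and lowest in replicates 3 to 5.

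The 5 bulk brain libraries did not give 1 level for these genes. In 73 of the 77 tested members both replicates 1 and 2 lay above replicates 3 to 5, against 35.0% of all genes tested, and in 1 member, Mrps18b, both lay below, against 34.1%. The median log2 difference of replicates 1 and 2 over replicates 3 to 5 was 0.79 for the members, a ratio of 1.73, and 0.00 for all genes tested (0.03 for protein-coding genes). It was largest for Mrpl52 (1.47), Mrps6 (1.41) and Mrps21 (1.38), a small-subunit protein with a bacterial homologue. The cytosolic ribosomal proteins moved further in the same direction, with a median of 1.21. Summed mitochondrially encoded messenger RNAs moved the other way, with 19904 and 16477 CPM in the first 2 libraries against 25030 to 33814 CPM in the other 3. What separated the libraries was not tested.

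The size of this split was larger for short genes. Across the 77 members, gene length in the table and the log2 difference between the bulk brain subsets had a Spearman correlation of -0.64, and across all genes tested of -0.47; the points share libraries, so these describe the libraries and carry no test. The 26 shortest members (median length 1166 bases) had a median split of 1.10, the 25 of middle length (2533 bases) 0.70 and the 26 longest (5607 bases) 0.60. The median difference between microglia and all 5 bulk brain libraries was -1.24, -0.64 and -0.76 from the shortest to the longest set, and 22, 15 and 18 members fell. Against bulk brain replicates 3 to 5 the medians were -0.73, -0.36 and -0.58, and the correlation with length was 0.12, against 0.29 with all 5 libraries.

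**Figure D4:**
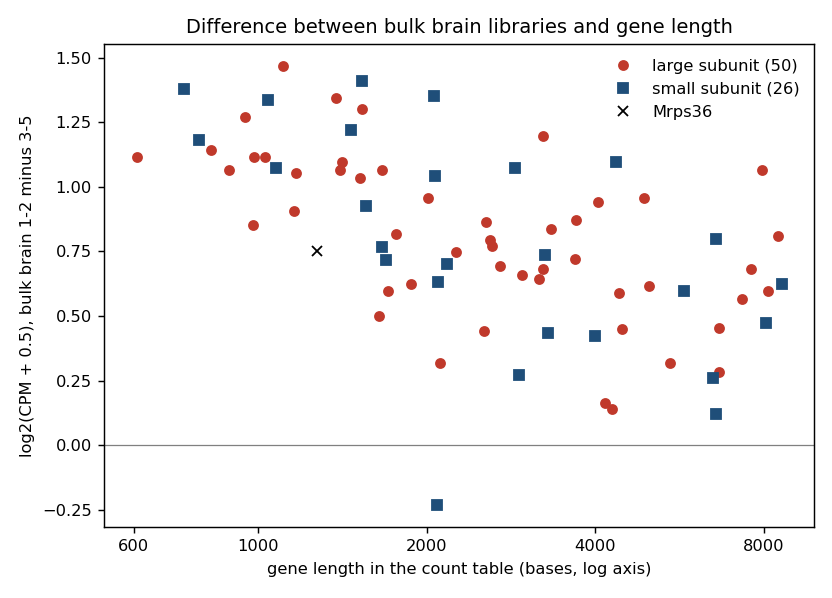
Difference of mean log2(CPM + 0.5) between bulk brain replicates 1 and 2 and replicates 3 to 5 (y axis) against gene length in bases (x axis, log scale) for the 77 tested members, with large-subunit genes as circles, small-subunit genes as squares and Mrps36 as a cross. All points but Mrps18b lie above 0, and the highest points lie among the shorter genes.

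Per gene length, the median member was at 17.7 to 21.8 TPM across the 5 microglia libraries and at 32.2 to 58.3 TPM across the 5 bulk brain libraries. The genes differed in level by much the same amount in both groups, with an SD over members of 0.94 in microglia and 1.00 in bulk brain on the log2 TPM scale. Mrps15 (110 ± 4.58 TPM), Mrpl24 (101 ± 5.98 TPM) and Mrpl52 (70.7 ± 7.62 TPM; SD, n = 5) were the most abundant members in microglia. The first 2 of these were closer to each other than to Mrpl52, and Mrps21, at 67.9 ± 8.65 TPM, did not differ from Mrpl52 beyond its spread. In bulk brain the order began with Mrpl41 (44.5 ± 3.67 TPM in microglia and 186 ± 70.1 TPM in bulk brain), Mrps21 (174 ± 81.2 TPM in bulk brain) and Mrpl12 (40.1 ± 3.09 TPM in microglia and 147 ± 69.2 TPM in bulk brain), whose spreads in bulk brain overlap. Mrps15 was rank 1 in microglia and rank 25 in bulk brain, and Mrpl24 rank 2 in microglia and rank 37 in bulk brain. The lowest members in microglia were Mrps25 (6.92 ± 1.16 TPM), Mrps35 (7.11 ± 0.727 TPM) and Mrpl19 (7.23 ± 1.03 TPM), which did not differ beyond their spread. In bulk brain they were Mrpl33 (9.73 ± 1.55 TPM in microglia and 5.37 ± 1.06 TPM in bulk brain), Mrps35 (10.3 ± 1.81 TPM in bulk brain) and Mrps18b (15.4 ± 0.472 TPM in microglia and 10.4 ± 2.17 TPM in bulk brain). Over the 77 genes the mean TPM of the groups had a Spearman correlation of 0.79, a description across genes. The ranks between genes rest on the gene length of the table, which may exceed that of the transcripts present. This length was 6576 bases for Mrps25, 8631 for Mrps35 and 5450 for Mrpl19, against 1693 for Mrps15, 2255 for Mrpl24 and 1109 for Mrpl52. The part of length in the ranks was not tested.

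Mrpl53 had 0 counts in all 10 libraries, below the limit of 3 counts that a count of 0 allows. On library totals without the TMM adjustment, that limit is 0.105 to 0.12 CPM in a single microglia library and 0.0864 to 0.116 CPM in a single bulk brain library. Its whole annotated span of 900 bases lies inside Gm42688 on the same strand, which had 452 counts in microglia and 144 in bulk brain, so the 0 cannot be read as absence of the transcript. Overlap with other genes is common among the members: 41 of 78 overlap at least 1 other gene of the table. In the 37 tested members without overlap, taken apart after the values were seen, 24 fell and 2 rose, with a median log2 difference of -0.73. Processed copies also exist: Mrpl48-ps had 134 counts in microglia and 270 in bulk brain, and Mrpl27-ps had 10 counts in microglia and 116 in bulk brain, so part of the reads of Mrpl48 and Mrpl27 may have been lost to, or gained from, their copies.

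Many of these genes start close to a neighbour that is read in the opposite direction. On the GRCm39 coordinates of the table, 23 members had a protein-coding neighbour in this head-to-head arrangement within 1000 bases or overlapping by at most 250, and 22 of these neighbours were tested. Of 18 such members that fell, the neighbour fell in 4, rose in 9 and did not pass in 5. The 2 members that rose, Mrpl37 and Mrps18b, had neighbours that rose, Cyb5rl (log2 difference 1.24) and Ppp1r10 (1.06). Of the 22 neighbours 11 rose and 6 fell, beside 37.2% and 43.9% of all genes tested. The median log2 difference was -0.88 for the members of these pairs and 0.57 for their neighbours. Mrps12 starts 172 bases from Sars2, the mitochondrial seryl-tRNA synthetase, which had 8.46 ± 1.89 CPM in microglia, against 11.0 ± 3.94 CPM in bulk brain (SD, n = 5 each; log2 difference -0.38, adjusted p = 0.17). Mrpl30, a large-subunit protein, had 15.1 ± 1.90 CPM in microglia, against 32.3 ± 10.5 CPM in bulk brain and starts 66 bases from Mitd1, which had 13.5 ± 1.77 CPM in microglia, against 5.70 ± 0.745 CPM in bulk brain (SD, n = 5 each), so that the member fell (log2 difference -1.10) and its neighbour rose (1.24). These pairs were named after their values were seen.

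The ribosome also holds proteins whose genes have other names. Dap3, a GTP-binding small-subunit protein, had 34.5, 35.4, 34.2, 34.7 and 35.7 CPM in microglia, against 87.2, 113, 57.3, 59.3 and 54.6 CPM in bulk brain, without overlap, and a difference of -1.09 ± 0.19 on the log2 scale (SE; adjusted p = 0.00025). Of 5 such genes 3 fell, Aurkaip1 (-1.34) furthest, and 1 rose. The one that rose, Ptcd3, a small-subunit protein with pentatricopeptide repeats that bind RNA, had 68.6, 69.8, 68.7, 71.7 and 66.0 CPM in microglia, against 42.5, 42.8, 49.4, 47.8 and 51.7 CPM in bulk brain, a rise of 0.56 ± 0.09 on the log2 scale without overlap (SE; adjusted p = 8.5e-05). Mitochondrially encoded RNAs were lower in microglia. Of 13 messenger RNAs 12 were tested, and all 12 fell (median log2 difference -2.23, lowest -3.66 for mt-Nd3, a subunit of complex I). Against bulk brain replicates 1 and 2, 11 fell (median -1.93), and against replicates 3 to 5, 12 fell (median -2.70). Both ribosomal RNAs fell, mt-Rnr1 by 4.52 and mt-Rnr2 by 3.72 on the log2 scale. The libraries were poly-T selected, and the part of that step in the ribosomal RNA levels was not tested.

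Nuclear genes that assemble and run the ribosome gave mixed directions. Of 27 genes of assembly and ribosomal RNA modification, 10 rose and 8 fell, with a median log2 difference of 0.04, which was -0.15 with library size alone as the scaling. The balance turned with the bulk brain libraries: 7 rose and 13 fell against replicates 1 and 2 (median -0.30), and 10 rose and 7 fell against replicates 3 to 5 (median 0.13). Mterf3, a factor for assembly of the large subunit, rose by 1.62 and Mrm3, a methyltransferase of the large ribosomal RNA, fell by 1.66 on the log2 scale. Of 13 translation factors 6 rose and 4 fell (median 0.14, and -0.04 with library size alone). Against replicates 1 and 2, 5 rose and 4 fell (median 0.10), whereas 6 rose and 6 fell against replicates 3 to 5, where the median was -0.21. Tufm, the elongation factor that brings transfer RNA, had 32.2, 37.0, 38.7, 33.0 and 35.3 CPM in microglia, against 79.3, 103, 49.1, 44.7 and 47.3 CPM in bulk brain, without overlap (log2 difference -0.88, adjusted p = 0.0035), and Mrrf, the recycling factor, fell by 0.96. The highest translation factor may share reads with an overlapping gene, so its value is uncertain and is not given.

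Of 20 genes of mitochondrial transfer RNA charging, 7 rose and 5 fell (median 0.03, and -0.15 with library size alone), from Pars2 (-0.95), the prolyl-tRNA synthetase, to Cars2 (1.62), the cysteinyl-tRNA synthetase. Here too the balance turned, with 6 higher and 7 lower against replicates 1 and 2 (median -0.15) and 8 higher and 6 lower against replicates 3 to 5 (median -0.0039). Of 12 tested genes of mitochondrial transcription, messenger RNA stability and DNA replication, 8 rose and 1 fell (median 0.64). The genes of DNA replication in this list are Polg, Polg2, Twnk and Ssbp1, and they were not counted apart. The median of the list was 0.43 against replicates 1 and 2 and 0.48 against replicates 3 to 5. The one that fell was Tfam, the packaging and transcription factor of mitochondrial DNA, at 33.0 ± 2.24 CPM in microglia, against 41.9 ± 6.72 CPM in bulk brain (SD, n = 5 each; log2 difference -0.34, adjusted p = 0.021). Polg2, the accessory subunit of the DNA polymerase, had the largest rise in that list (2.54) and overlaps Milr1 on the opposite strand over 542 bases. Milr1 was at 16.9 ± 1.34 CPM in microglia, against 0.462 ± 0.209 CPM in bulk brain (SD, n = 5 each), so reads of the pair may be mixed and the Polg2 value is uncertain. Overlap was examined only for the genes with the largest change of each list. Among these, Mterf3, Mrm3, Mrrf, Cars2, Hspe1 and Vdac1 also overlap a gene on the opposite strand. Other genes named from the lists, such as Tufm, Polrmt, Lrpprc, Dap3 and Sars2, were not examined for overlap. Polrmt, the mitochondrial RNA polymerase, rose by 0.35 against all 5 bulk brain libraries (adjusted p = 0.03) and had a log2 difference of 0.01 against replicates 1 and 2 (adjusted p = 0.94). Lrpprc, which keeps mitochondrial messenger RNAs stable, had 103 ± 6.72 CPM in microglia, against 98.1 ± 3.22 CPM in bulk brain (SD, n = 5 each; log2 difference 0.07, adjusted p = 0.45). Of 16 genes of mitochondrial import and matrix housekeeping 11 fell and 2 rose (median -1.01, with -1.37 against replicates 1 and 2 and -0.86 against replicates 3 to 5), with Vdac1, the outer-membrane channel, lowest (-2.51) and Hspe1, the matrix co-chaperonin, highest (1.41). The shares of these lists called lower or higher stand beside the same background of 43.9% and 37.2% of all genes tested. That background was 44.9% and 37.1% against replicates 1 and 2, and 47.4% and 37.9% against replicates 3 to 5.

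**Figure D5:**
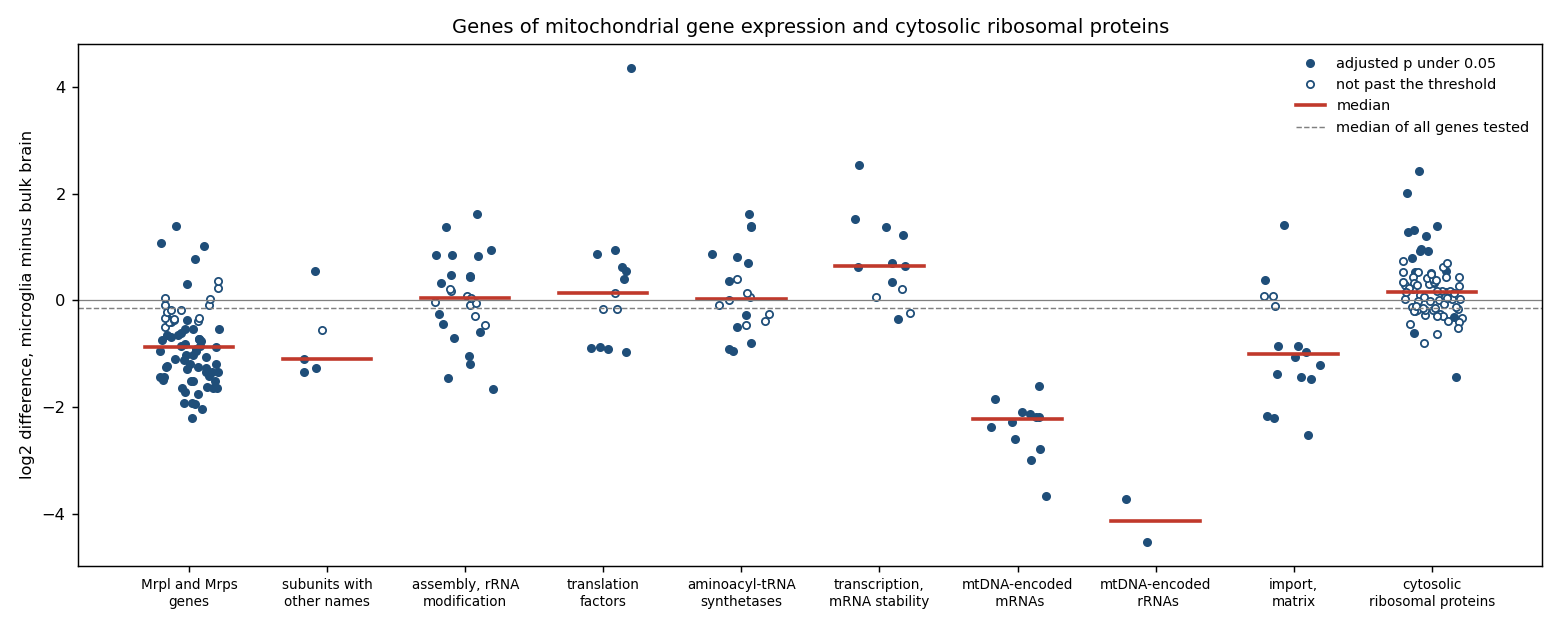
Log2 difference, microglia minus bulk brain (y axis), of each tested gene of 10 lists: the Mrpl and Mrps genes, other mitochondrial gene lists and the cytosolic ribosomal proteins. Filled points passed an adjusted p of 0.05, red lines are medians, and the dashed line is the median of all genes tested. Medians lie at -0.88 for the Mrpl and Mrps genes and at -2.23 and -4.12 for mitochondrially encoded messenger and ribosomal RNAs. They lie between 0.03 and 0.64 for assembly, translation factors, transfer RNA charging and transcription (the first 3 of these lists below 0 with library size alone). The transcription list also holds genes of mitochondrial DNA replication.

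The proteins of the cytosolic ribosome, whose genes are likewise short and numerous, gave another pattern. Summed over 78 genes they were at 11683, 12505, 12113, 12268 and 11712 CPM in microglia, against 12266, 19188, 6928, 6664 and 6771 CPM in bulk brain. The microglia libraries lay above bulk brain replicates 3 to 5 and below replicate 2. With all 5 bulk brain libraries 12 of the 78 genes rose (background 37.2%) and 3 fell (background 43.9%). Their median log2 difference was 0.15, and -0.03 with library size alone. Against replicates 3 to 5, 67 rose (background 37.9%) and 4 fell (background 47.4%), with a median of 0.64. Against replicates 1 and 2, 9 rose (background 37.1%) and 50 fell (background 44.9%), with a median of -0.57. The direction for the cytosolic ribosomal proteins thus turned with the bulk brain libraries used, whereas the median of the mitochondrial ribosomal protein genes was below 0 with either subset. The difference between the lists was not tested.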

How the data were processed

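The authors deposited 1 table of raw read counts per gene for the 10 libraries, with gene symbol, position, biotype and gene length per the file headers. Per the labels' protocols, libraries were poly-T selected and primed with random hexamers. Per the submitters' processing notes, CASAVA, HISAT2 2.2.1 and featureCounts 2.0 and the build GRCm39 (mm39) were used. Neither the strand setting nor the handling of multi-mapped reads is stated in the sources used here.

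From these counts, genes passing edgeR's filterByExpr by group were scaled by TMM and tested with edgeR 4.0.16's quasi-likelihood test (R 4.3.3, limma 3.58.1), with group as the only term and Benjamini-Hochberg adjustment over all genes tested. SEs were derived as the absolute log2 difference over the square root of the F statistic. CPM use TMM-scaled totals, except for the limit of 3 counts, and TPM use the table's gene length. DESeq2 1.42.0 and limma-voom were alternatives. No pair of libraries within a group agreed within sampling noise. The limit of 3 counts covers counting error only, whereas SDs and SEs include the spread between libraries. Named members were those with defined roles, the 3 highest and 3 lowest levels per group and members that failed the filter. Also named were the largest changes without overlap, up to 6 in each direction, of which only 4 were rises. The largest bulk brain splits were named too, up to 3 in each direction, with only 1 member lower in replicates 1 and 2. Others are said to be chosen after their values were seen. Per list, the largest change in each direction was named, except the largest rise among translation factors, which is not reported here. Members and lists were chosen with earlier results of these data known. Each of the 10 value columns was matched to its sample by name.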

Additional observations from a re-analysis of the deposited data

Results flagged for a closer look

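In 4 of 52 groups of 5 libraries examined among the named members, 1 library lay far from the other 4 relative to the group's range; chance gives about 1 in 20. Mrpl12 had 15.0 CPM in its lowest microglia library, against 17.0 to 17.3 CPM in the other 4. Mrps6 had 8.03 CPM in its highest microglia library, where the next was 5.05 CPM. Mrpl19 had 35.2 CPM and Mrps18a 54.3 CPM in their highest bulk brain library, where the next were 25.1 and 31.0 CPM. In both bulk brain cases the library was replicate 2, and in Mrpl12 and Mrps6 it was microglia replicate 2. The cause was not tested.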

How the results depend on the processing

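Over 22 alternatives, 48 to 70 members were lower and 4 to 7 higher. Lower in every fit were 46 members and higher in every fit were 4: Mrpl24, Mrps15, Mrpl33 and Mrps18b. No member called lower turned to a higher call. Members at least 2-fold higher, 3 in the fit reported, were 1 with DESeq2, with median-of-ratios size factors, with library size alone and without a filter on low counts, 0 against bulk brain replicates 1 and 2, and 1 to 3 when 1 library was left out. Against bulk brain replicates 1 and 2, 52 members were at least 2-fold lower, and the median log2 difference was -1.34 over the members and -1.37 over the large subunit. Against replicates 3 to 5 the small-subunit median was -0.39. The SD of log2 levels over members in microglia was 0.86 with CPM and 0.94 with TPM. Direction was followed over the fits only for the members named by rule, which leave out Mrpl37. Among them it reversed for Mrpl52 (-0.44) and Mrps30 (-0.11) against replicates 1 and 2. It also reversed for Mrpl32 against replicates 3 to 5 (0.046) and among protein-coding genes only (0.035). None of these had passed the test. Mrpl37, called higher in the fit reported, was slightly below 0 against replicates 1 and 2. When 1 library was left out, 48 to 62 members were lower, 31 to 42 at least 2-fold lower and 4 to 6 higher, and the median was between -1.09 and -0.80. The cause was not tested.

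With the replicate number as a block, 48 members were lower and 4 higher, 31 at least 2-fold lower and 3 at least 2-fold higher, and the median was -0.79. Whether same-numbered samples come from the same animal is not in the labels. Correlations of same-numbered libraries, taken on deviations from the group means, were -0.045 to 0.019. In 0 of 5 was the own number the best match. The split between the bulk brain libraries enters these deviations, so they cannot show whether the samples are paired. The median of all genes was -0.31 with median-of-ratios size factors, -0.33 with library size alone and -0.07 with upper-quartile scaling, against -0.14 with TMM. Precision is limited by 5 libraries per group and by the spread between bulk brain libraries; depth limits what can be said of Mrpl53, which had 0 counts.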
